A study of Macaca mulatta with 304 samples.

Results

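Whole blood taken from rhesus macaques on Day 90 after irradiation of the thorax was set against blood of the same animals on Day 30. The interval was taken as the onset phase of lung injury, which the blood libraries do not themselves measure. Every animal with a library on both days entered, which gave 34 of the 304 libraries and 17 of the 28 animals. The other 11 animals had a Day 30 library but no Day 90 library and were not compared. Of the 17 pairs, 12 came from animals labelled 9.8 Gy (6 males and 6 females) and 5 from animals labelled 10.7 Gy (1 male and 4 females).

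All animals were adult Macaca mulatta of the Chinese sub-strain, and all received a single dose to the thorax from a linear accelerator. There was thus no unirradiated animal on either day, and the only unirradiated blood was drawn from the same animals on Day -2 as control. Per the methods, dexamethasone was given to animals that breathed fast, and analgesics were given in the first weeks. The labels do not say which animals received them. RNA was sequenced from blood drawn from conscious animals through a lancet puncture, after removal of ribosomal RNA, and counted per gene.

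Whole blood RNA is a mixture. Neutrophils, monocytes, eosinophils, lymphocytes and platelets each carry their own transcripts, and young red cells (reticulocytes), which have lost the nucleus, still carry the messages for haem synthesis, the membrane skeleton and blood group antigens that they used as erythroblasts. Eosinophils depend on interleukin-5 for growth and survival, and neutrophils and monocytes are rich in calgranulins and pattern recognition receptors. In such a mixture, fewer cells of a type and less RNA per cell cannot be told apart.

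Reads assigned to genes ranged from 4840026 to 9504959 on Day 30 and from 5380587 to 10043641 on Day 90. Of 13751 genes tested over the 17 pairs, 166 were higher and 421 were lower on Day 90 at an adjusted p of at most 0.05 and a change of at least 1.5-fold, which is 1.21% and 3.06% of the genes tested. The median change over all genes tested was -0.000765 on the log2 scale. All Day 30 libraries carried the library number S0. On Day 90, 13 libraries carried S0 and the other 4, all of 9.8 Gy animals, carried other numbers. In the 13 animals with S0 on both days, 1.44% of the genes were higher and 346 genes (2.52%) were lower, and 426 of the calls were shared with the 17 animals.

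Red cell transcripts fell together from Day 30 to Day 90. In the list of 34 erythroid genes, 29 were lower, none was higher, and the median log2 change was -1.52. At 9.8 Gy 24 of the 34 were lower, against 2.24% of all genes tested. At 10.7 Gy 28 were lower, against 12.6% of all genes tested. In the 8 animals of 9.8 Gy with S0 on both days only 2 genes in all were called (ADD2 and LOC699418, 1136 genes at an unadjusted p under 0.05), while the erythroid median was -1.64, with 28 of 34 members at an unadjusted p under 0.05 and a lowest adjusted p of 0.0501. With the median over the list taken in each animal, 16 of 17 animals were below 0, with a range from -3.94 to 0.51 and a median of -1.55. The exception was the 9.8 Gy male B1004, at 0.51.

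ALAS2, which encodes the erythroid enzyme of the first step of haem synthesis (chrX:54735685-54755120, minus strand, Mmul_10), was the most abundant of the genes that fell furthest. Over 17 animals it ranged from 3382 to 28610 CPM, its reads scaled to the depth of the library, on Day 30, with a median of 13430, and from 862 to 8987 CPM on Day 90, with a median of 2591. The ranges overlapped, but the level was lower on Day 90 in 16 of 17 animals. The log2 change was -2.31 ± 0.306 (SE; adjusted p = 6.82e-05, edgeR's quasi-likelihood test with Benjamini-Hochberg adjustment). In the 5 animals of 10.7 Gy, B2001, B2502, B2504, B2506 and B2507, ALAS2 was at 16020, 15710, 11700, 22380 and 13430 CPM on Day 30 and at 1264, 8987, 2296, 6508 and 4213 CPM on Day 90. These 2 sets of 5 values did not overlap. Later steps of haem synthesis moved the same way, with log2 changes of -0.81 ± 0.148 for UROD (uroporphyrinogen decarboxylase) and -1.78 ± 0.269 for FECH (ferrochelatase), both lower in at least 15 of 17 animals. SLC25A37, the mitochondrial iron importer, did not pass the test (log2 change -0.14 ± 0.189).

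The membrane of the red cell gave the same picture. SLC4A1 (band 3, the anion exchanger) changed by -2.25 ± 0.331, EPB42 (protein 4.2) by -2.03 ± 0.277 and ANK1 (ankyrin) by -1.64 ± 0.214 on the log2 scale. SPTB (beta spectrin) fell by less, -0.65 ± 0.153 (adjusted p = 0.00886). KEL, the Kell blood group protein, had a Day 30 median of 17.6 CPM and a Day 90 median of 3.20 CPM and was lower in 16 of 17 animals. At 10.7 Gy it was at 18.1, 25.6, 21.0, 31.97 and 17.6 CPM on Day 30 and at 2.82, 11.2, 5.52, 7.60 and 7.84 CPM on Day 90, again without overlap. RHCE and XK, which carry further blood group antigens, changed by -1.52 ± 0.244 and -1.54 ± 0.210.

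Regulators of red cell formation were divided. KLF1, the erythroid zinc finger activator, changed by -2.25 ± 0.364 (adjusted p = 0.000289), and TAL1, a partner of the GATA factors, by -1.11 ± 0.194. GATA1 itself changed by -0.66 ± 0.244 and did not pass the test (adjusted p = 0.0996). TFRC, the transferrin receptor of dividing erythroblasts, was also not called (-0.51 ± 0.190, adjusted p = 0.102). AHSP, the chaperone of alpha globin, fell by 1.96 ± 0.283 and HBM, a globin of the alpha cluster, fell by 2.24 ± 0.402 on the log2 scale. HBB and the gene named HBA did not pass the test, with log2 changes of -0.65 ± 0.505 and 0.88 ± 0.425. Their medians on Day 30, 31.4 CPM and 6.59 CPM, lay far below that of ALAS2. Globin genes have near-identical copies between which the counting can lose reads, which was not tested, so their levels are uncertain. HBB changed by 1.445, 3.34, 1.095 and 4.137 in B1002, B1003, B1505 and B1506, whose Day 90 libraries carried other numbers than S0. In the other animals, with S0 on both days, it changed by -4.07 to 0.66. The cause of this difference between library numbers was not tested. A fit on S0 libraries only was 1 of the 26 alternatives to the processing. Over the 26 the log2 change of HBB ran from -1.542 to 0.597, and HBB was called lower in 1.

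**Figure D1:**
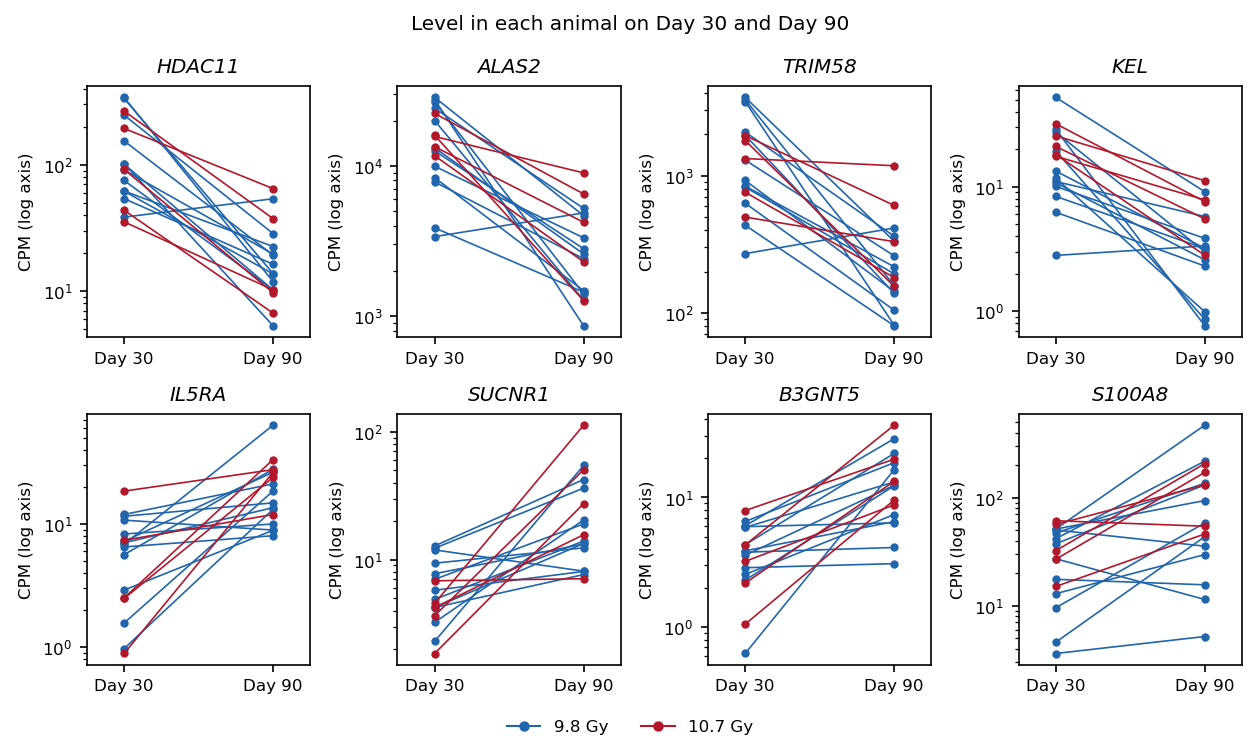
Level of 8 genes in each of the 17 animals on Day 30 and Day 90, in CPM on log axes, with a line for each animal (blue, 9.8 Gy; red, 10.7 Gy). HDAC11 and the red cell genes ALAS2, TRIM58 and KEL, in the top row, run down in 16 of 17 animals, and IL5RA, SUCNR1 and B3GNT5 run up in at least 16 of 17.

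The start regions of 2 of the erythroid genes that fell are shown, since genes that moved together can be compared by the letters upstream of them. Each is 250 bases upstream of the gene's annotated start, read 5′ to 3′ on the strand of the gene from the Mmul_10 RefSeq assembly. Capitals mark AGATAA, the core of sites for GATA factors, and CCNCNCCC, the core of CACCC-type sites of KLF factors, on either strand.
EPB42 (chr7:19720927-19721176, minus strand): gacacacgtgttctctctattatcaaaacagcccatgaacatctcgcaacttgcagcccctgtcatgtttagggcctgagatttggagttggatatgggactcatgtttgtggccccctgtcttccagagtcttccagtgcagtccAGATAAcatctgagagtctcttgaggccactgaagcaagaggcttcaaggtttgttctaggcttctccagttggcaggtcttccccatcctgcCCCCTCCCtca
AHSP (chr20:28978662-28978911, plus strand): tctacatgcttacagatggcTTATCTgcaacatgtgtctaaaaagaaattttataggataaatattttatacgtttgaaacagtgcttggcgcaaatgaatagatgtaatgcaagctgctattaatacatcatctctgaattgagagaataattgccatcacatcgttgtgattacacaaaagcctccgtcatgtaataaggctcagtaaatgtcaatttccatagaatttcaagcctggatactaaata
Of the 34 erythroid genes, 7 held AGATAA in this window (20.6%), against 936 of the 13651 tested genes with a window (6.86%). CCNCNCCC was held by 20 of the 34 (58.8%) and by 59.8% of all. These 2 genes were picked because their window holds AGATAA, and a match describes the letters only.

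The 10 largest falls lay in part outside the erythroid list, which holds TRIM58, SELENBP1 and ALAS2 of them. The gene with the largest fall by the naming rule was HDAC11, a histone deacetylase (chr2:144875316-144903615, plus strand). It ranged from 35.4 to 341 CPM on Day 30 (median 91.98) and from 5.33 to 64.8 CPM on Day 90 (median 13.8), with a log2 change of -2.67 ± 0.283 (adjusted p = 2.24e-05), and B1004 was again the only animal in which it was higher. At 10.7 Gy the 5 animals ran from 35.4 to 266 CPM on Day 30 and from 6.72 to 64.8 CPM on Day 90, which overlapped between animals, but each animal was lower on Day 90 than on Day 30. The others among the 10 largest falls were PKLR (pyruvate kinase of liver and red cells, -2.58), PRSS47 (a serine protease, -2.54), RAB3IL1 (an exchange factor for Rab GTPases, -2.50), ADD2 (beta adducin of the membrane skeleton, -2.46), TRIM58 (a ubiquitin ligase of maturing red cells, -2.44), SELENBP1 (selenium-binding protein, -2.37), MPP2 (a membrane scaffold protein, -2.36), PAQR9 (a seven-helix receptor family member, -2.31) and ALAS2.

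Several genes that other lists hold fell in the same interval. BNIP3L, the receptor that clears mitochondria from reticulocytes, changed by -1.33 ± 0.235 and was 1 of only 2 lower members of the 29 hypoxia and glycolysis genes. STOM (stomatin, a membrane protein of red cells and granules) changed by -0.98 ± 0.181. PLVAP, listed as an endothelial marker, was lower in 15 of 17 animals (-1.86 ± 0.249), while the summed level of the 19 endothelial markers ranged from 358 to 777 CPM on Day 30 and from 398 to 892 CPM on Day 90. PLVAP was the only member called of the 10 tested, against 3.06% of all genes called lower. DSP (desmoplakin), listed as a keratinocyte marker, was lower in 12 of 17 animals (-1.68 ± 0.368) and was the only member called of 7 tested. The 14 keratinocyte markers summed to 26.8 to 142 CPM on Day 30 and to 23.8 to 52.7 CPM on Day 90, 4 of them (KRT1, KRT2, LOR and KRTDAP) were at 0 in every library, and the part of skin cells from the puncture in the result was not tested. The lung epithelial markers, 16 of 18 with counts in the table, summed to 21.3 to 57.8 CPM over both days, with none called among 4 tested and SFTPA1, SFTPD, SCGB3A2, EPCAM and SLC34A2 at 0.

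Other draws of the same animals placed the Day 30 level of the red cell genes. Relative to the same animal's Day 30, the erythroid list stood at a median of -1.31 in the control blood of 15 animals and lay below Day 30 in all 15. It was at -0.96 on Day 40 (13 of 15 animals below), -1.33 on Day 60 (17 of 17), -1.55 on Day 90 (16 of 17) and -1.04 on Day 120 (10 of 14). With Day 90 set directly against control, the list was lower in 8 and higher in 7 of 15 animals, with a median of -0.08. These values share the Day 30 or Day 90 libraries and are a description. Of the 15 control libraries 14 carried other numbers than S0, so library number and day cannot be told apart for control. Among S0 libraries alone, the list was below Day 30 in 13 of 13 animals on Day 60 and in 12 of 13 on Day 90.

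**Figure D2:**
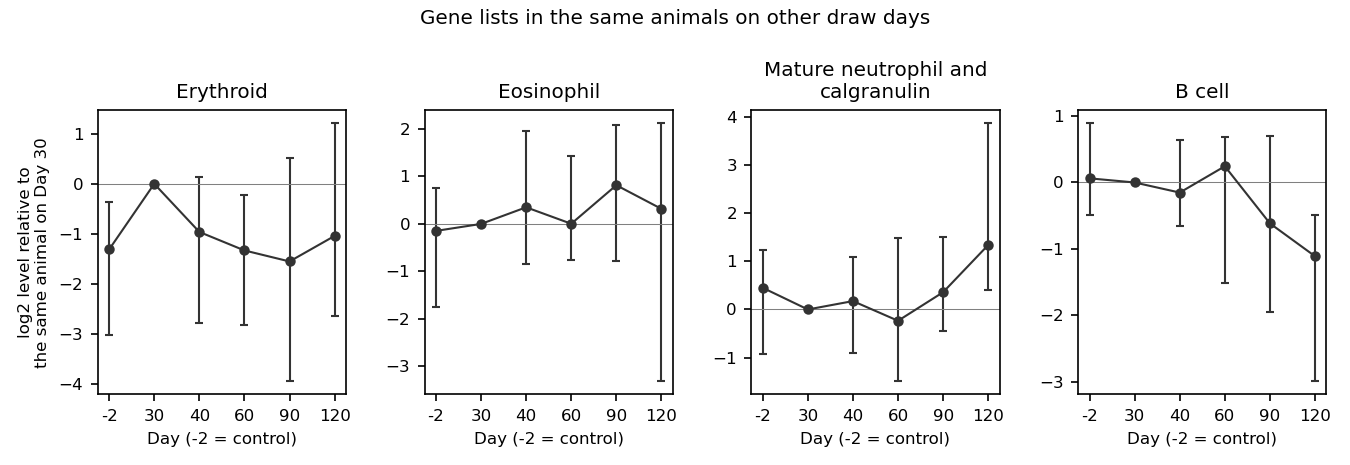
Level of 4 gene lists in the same animals on Day -2 (control) and Days 30, 40, 60, 90 and 120, as the median log2 CPM difference from the animal's own Day 30; points are medians over 14 to 17 animals and bars run from the lowest to the highest animal. The erythroid list is highest on Day 30, and its control and Day 90 medians are -1.31 and -1.55.

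Eosinophil genes rose. Of 9 tested members, 6 were higher and none was lower, with a median log2 change of 0.98, against 1.21% of all genes called higher. The list median was above 0 in 14 of 17 animals. IL5RA, the alpha chain of the interleukin-5 receptor (chr2:134391288-134428409, minus strand), ranged from 0.887 to 18.5 CPM on Day 30 (median 6.84) and from 8.04 to 63.5 CPM on Day 90 (median 18.5). It was higher on Day 90 in 16 of 17 animals, again all but B1004, although the ranges overlapped (log2 change 1.75 ± 0.328, adjusted p = 0.00123). At 10.7 Gy it was at 18.5, 2.51, 0.887, 2.48 and 7.37 CPM on Day 30 and at 27.7, 33.4, 26.3, 23.9 and 11.9 CPM on Day 90.

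EPX, the peroxidase of eosinophil granules, was higher in 14 of 17 animals (1.49 ± 0.443, adjusted p = 0.0401), but lost the call in 12 of 26 alternatives to the processing, among them the S0 libraries, in which 3 of the 9 genes were higher. CCR3, the receptor for eotaxins, changed by 1.05 ± 0.289, SMPD3 (a neutral sphingomyelinase) by 1.32 ± 0.305, ADGRE1 (an adhesion receptor, EMR1) by 0.98 ± 0.190 and PTGDR2 (a prostaglandin D2 receptor that basophils also carry) by 0.66 ± 0.189. Not called were ALOX15 (15-lipoxygenase, 0.24 ± 0.198), HRH4 (histamine H4 receptor, 0.51 ± 0.253) and GATA1. RNASE3, the eosinophil cationic protein, stands in the neutrophil granule list and was higher in 15 of 17 animals (1.54 ± 0.330), at medians of only 0.897 CPM on Day 30 and 1.43 CPM on Day 90. The gene annotated as galectin-10, the protein of Charcot-Leyden crystals (LOC699418), was chosen after its values were seen. It ranged from 1.46 to 46.1 CPM on Day 30 (median 20.9) and from 19.4 to 657 CPM on Day 90 (median 88.2), was higher in 16 of 17 animals and changed by 2.47 ± 0.415 (adjusted p = 0.00043). Compared with control, the eosinophil list on Day 90 was higher in 14 of 15 animals, with a median log2 difference of 1.47. Here too, 14 of the 15 control libraries carried other numbers than S0, so library number and day cannot be told apart. On Days 40, 60, 90 and 120 the medians of the eosinophil list relative to Day 30 were 0.35, 0.00, 0.82 and 0.32. Among S0 libraries alone, of 7, 13, 13 and 10 animals, these medians were 0.689, 0.326, 1.51 and 0.317. Basophil and mast cell genes gave no such shift, with none higher and 1 (GATA2, -0.77 ± 0.214) lower of 9. GATA2 lost the call in 9 of the 26 alternatives.

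The largest rise by the naming rule was SUCNR1, the receptor for succinate (chr2:54107670-54118661, plus strand). It ranged from 1.85 to 12.8 CPM on Day 30 (median 4.88) and from 7.09 to 112.4 CPM on Day 90 (median 15.7), with a log2 change of 1.79 ± 0.335 (adjusted p = 0.0012), and was higher in every animal but B1004. B3GNT5, which makes the core of lacto-series glycolipids (chr2:88524040-88544672, plus strand), was higher in 17 of 17 animals. It went from 0.627 to 7.93 CPM (median 3.79) to 3.09 to 36.1 CPM (median 12.4), a log2 change of 1.75 ± 0.256 (adjusted p = 0.000112). Others among the 10 largest rises were IL5RA, RNASE3, SP6 (a zinc finger factor, 1.56), CSTA (cystatin A, a protease inhibitor, 1.44), VSTM1 (an inhibitory receptor of myeloid cells, 1.29), F5 (coagulation factor V, 1.24) and SERPINB10 (a myeloid serpin, 1.18). SERPINB10, CSTA and VSTM1 were each higher in at least 15 of 17 animals.

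Genes of neutrophils and monocytes rose in smaller groups. Over all genes tested 1.21% were higher and 3.06% lower, the background for the counts of this and the next paragraphs. Of 20 mature neutrophil and calgranulin genes, 5 were higher and none was lower, with a median log2 change of 0.37. The list median was above 0 in 11 of 17 animals. At 9.8 Gy 2 of the 20 were higher (0.371% of all genes). At 10.7 Gy 9 were higher (9.1% of all genes), and with GC offsets 6 (3.59%). S100A8 and S100A9, the calgranulin pair, changed by 1.41 ± 0.291 and 1.08 ± 0.253 and were higher in 13 and 15 of 17 animals. S100A8 had Day 30 values from 3.61 to 61.2 CPM (median 32.3) and Day 90 values from 5.18 to 470 CPM (median 58.4), so that the ranges overlapped. PADI4, which citrullinates histones in neutrophils, changed by 0.75 ± 0.201, ANXA3 by 0.67 and KCNJ15 by 0.71. CXCR2, the neutrophil chemokine receptor, did not pass the test (0.04 ± 0.154).

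The 20 granule genes were called in both directions. Higher were RETN (resistin, 1.00 ± 0.305), LYZ (lysozyme, 0.78 ± 0.217), MMP9 (gelatinase, 0.71 ± 0.202), CYBB (the oxidase subunit, 0.61 ± 0.127), SERPINB10 and RNASE3, and lower were CHI3L1 (-1.04 ± 0.274) and STOM. LYZ, MMP9 and CYBB lost the call in 6, 9 and 5 of the 26 alternatives to the processing. MPO and AZU1, made early in granulocyte formation, stood at -0.01 ± 0.292 and -0.08 ± 0.222, and LTF (lactoferrin) at -0.38 ± 0.217, none of them called. Of 21 monocyte genes 3 were higher (CSTA, LYZ and CLEC7A), while the markers CD14 and CSF1R stood at 0.17 ± 0.187 and -0.22 ± 0.178 and were not called. At 9.8 Gy 1 monocyte gene was higher (0.371% of all genes). At 10.7 Gy 7 were higher (9.1% of all genes), and with GC offsets 3 (3.59%).

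Sensors and cytokines of the innate response rose in part. Of 26 Toll-like, inflammasome and C-type lectin receptor genes, 5 were higher, against 1.21% of all genes: TLR1, TLR5, TLR6 and TLR8, which sense bacterial lipoproteins, flagellin and RNA, and CLEC7A (dectin-1), by 0.62 to 0.81 on the log2 scale. TLR4 changed by 0.44 ± 0.192 and was not called. With GC offsets over the 17 animals none of these 5 was called, and PYCARD, the adaptor of inflammasomes, was the 1 member called (0.64 ± 0.127, adjusted p = 0.00223). In the interleukin-1 family 4 of 15 were higher, namely IL1B (0.61 ± 0.180), IRAK3 (a brake on Toll-like signalling, 0.60 ± 0.152), IL18RAP (1.11 ± 0.280) and IL1RL1, the receptor for interleukin-33 (0.99 ± 0.234). IL1B and IRAK3 lost the call in 15 and 10 of the 26 alternatives to the processing. Within 9.8 Gy 1 of the 26 receptor genes and none of the 15 interleukin-1 genes was higher, against 0.371% of all genes. At 10.7 Gy 13 and 6 were higher, against 9.1% of all genes, and 1 receptor gene was lower (12.6%). With GC offsets 4 and 2 were higher at 10.7 Gy (3.59% of all genes). The dose difference was called for none of these genes. IL1RL1 had medians of 6.98 CPM on Day 30 and 15.9 CPM on Day 90 and was higher in 14 of 17 animals. CXCL8 (interleukin-8) changed by 0.87 ± 0.245 and CXCR3, a receptor of activated T cells, by -0.71 ± 0.212, but they lost the call in 8 and 16 of the 26 alternatives. Of 27 genes of TGF-beta signalling, fibrosis and matrix, MMP9 alone was called, and TGFB1 stood at -0.22 ± 0.149.

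Metabolic and complement genes were called in both directions. HIF1A (0.59 ± 0.124, higher in 16 of 17), LDHA (lactate dehydrogenase, 0.61 ± 0.126), PFKFB3 (a regulator of glycolysis, 0.64 ± 0.187) and HK3 (hexokinase 3, 0.74) were higher, HIF1A and PFKFB3 without the call in 10 and 12 of the 26 alternatives, and BNIP3L and the glucose transporter SLC2A1 (-0.68) were lower of 29 tested. At 9.8 Gy none of the 29 was higher and 1 was lower (0.371% and 2.24% of all genes). At 10.7 Gy 8 were higher and 3 lower (9.1% and 12.6% of all genes). With GC offsets these were 6 and 1 (3.59% and 2.95% of all genes), and no dose difference was called in this list. C5 (-1.45 ± 0.318), CR1 (-0.63) and ITGAX (-0.70) were lower and F5 and C3AR1, the C3a receptor (0.73 ± 0.146), were higher of 22 complement and coagulation genes. Glucocorticoid-responsive genes, listed because of the dexamethasone, had 2 of 25 higher, ADORA3 (adenosine A3 receptor, 1.33 ± 0.288) and ANXA1 (annexin A1, 0.60 ± 0.136). FKBP5 and TSC22D3, 2 standard reporters of the hormone, stood at -0.13 ± 0.116 and -0.28 ± 0.128 and were not called.

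**Figure D3:**
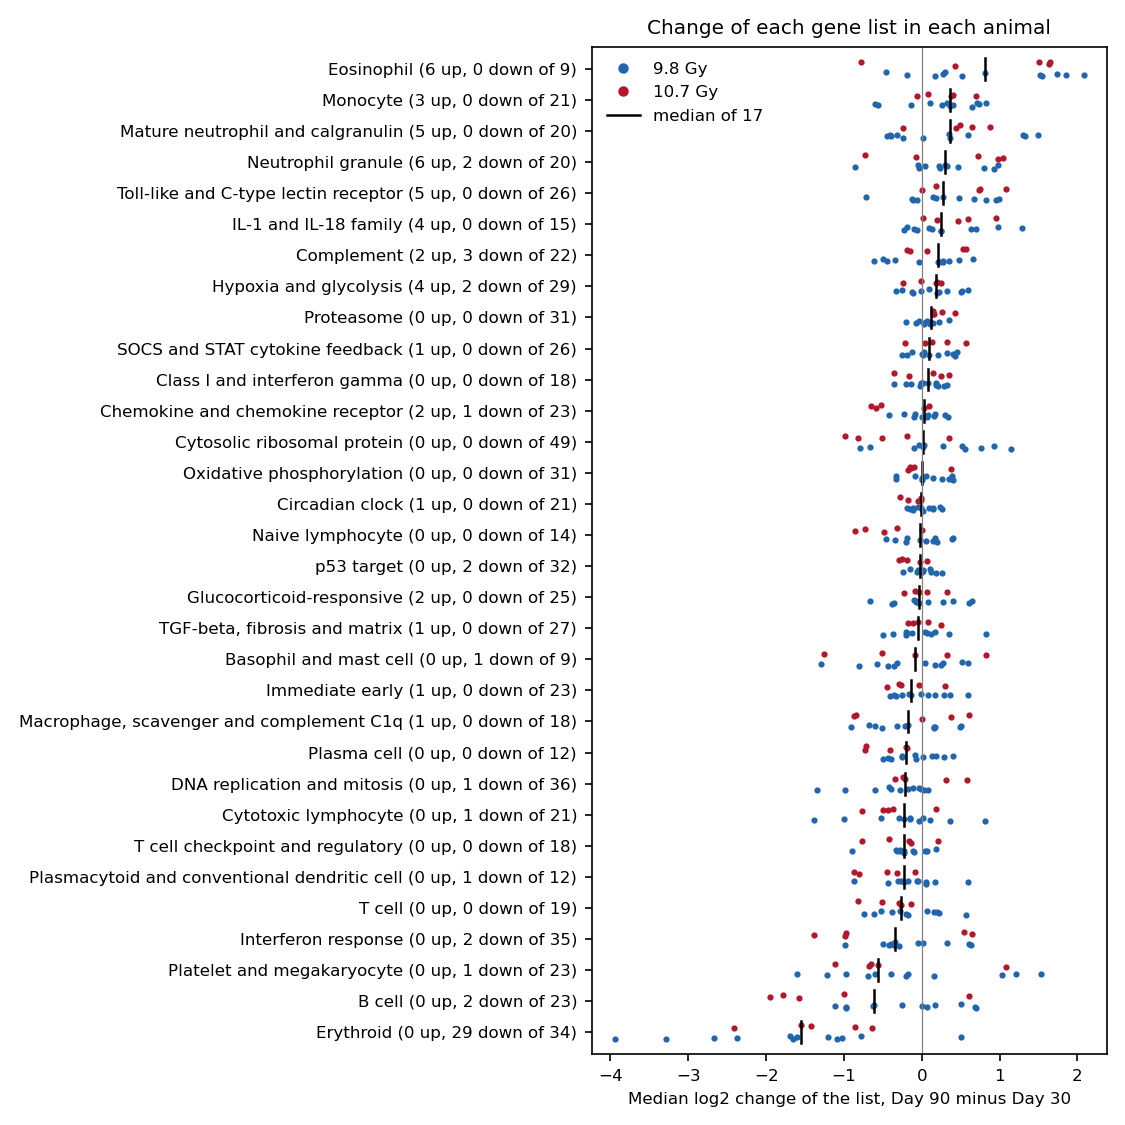
Median log2 change of each of 32 gene lists from Day 30 to Day 90, with a point for each animal (blue, 9.8 Gy; red, 10.7 Gy) and a bar at the median of the 17; the number of members called higher and lower of those tested stands beside each name. The erythroid list lies furthest below 0 (median -1.55) and the eosinophil list furthest above it (median 0.82).

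Lymphocyte lists held few calls over the 17 animals. Of 23 B cell genes 2 were lower, POU2AF1 (a coactivator of B cells, -0.85 ± 0.150, lower in 16 of 17 animals) and TNFRSF13B (the receptor TACI, -0.81 ± 0.188), and the list's median was -0.46. DESeq2 called 7 of the 23 lower. No member was called among 19 T cell, 14 naive lymphocyte and 12 plasma cell genes by edgeR or DESeq2. By edgeR 6, 2 and 5 of them were at an unadjusted p under 0.05, against 3204 of all 13751 genes tested. GNLY (granulysin, -0.66 ± 0.141) was lower of 21 cytotoxic genes. Of 35 interferon-response genes 2 were lower, RSAD2 (viperin, -1.25 ± 0.216) and IFIT1 (-0.97 ± 0.186), and MX1 stood at -0.60 ± 0.211 (adjusted p = 0.0852). Of 32 p53 targets, APOBEC3H (-0.97 ± 0.162) and GADD45A (-0.77 ± 0.177) were lower, while CDKN1A and MDM2 stood at 0.04 ± 0.132 and 0.08 ± 0.127. MCM2, a replication helicase subunit, was the 1 lower member of 36 replication and mitosis genes (-0.93 ± 0.195).

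The libraries of the 10.7 Gy animals differed between the days in a measure of GC content. In each library, the median log2 deviation of the 20% of genes richest in GC minus that of the 20% poorest in GC ran from 0.547 to 0.738 on Day 30 and from -0.698 to 0.0489 on Day 90 in the 5 animals, without overlap. At 9.8 Gy it ran from -0.776 to 1.17 and from -0.70 to 1.01. The genes of the 10.7 Gy comparison followed it, with a median log2 change of 0.43 in the poorest 20% and -0.58 in the richest. At 10.7 Gy 1252 genes were higher (9.1%) and 1729 lower (12.6%), and with offsets that take the GC trend out of each library, an alternative added after seeing the data, 494 (3.59%) and 406 (2.95%), of which 660 calls were shared. The part of this measure in the results at 10.7 Gy was otherwise not tested.

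**Figure D4:**
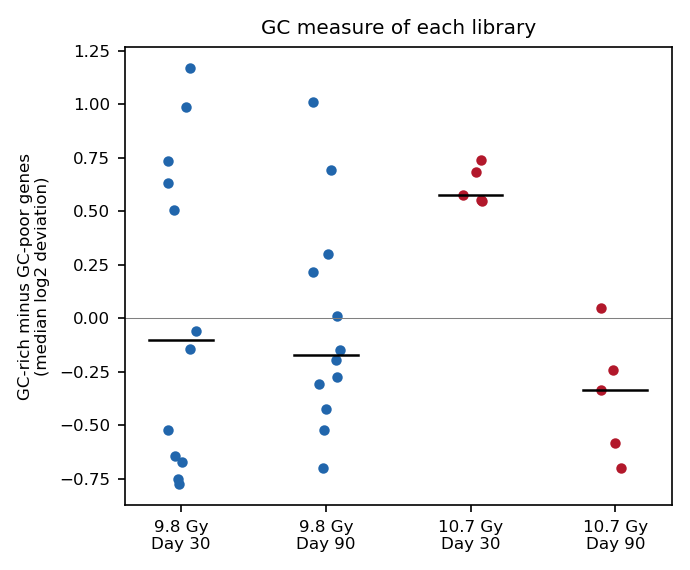
GC measure of the 34 libraries (median log2 deviation of the 20% of genes richest in GC minus that of the 20% poorest), a point for each library and a bar at the group median. The 5 libraries of 10.7 Gy on Day 30 lie from 0.547 to 0.738 and those on Day 90 from -0.698 to 0.0489.

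Erythroid genes fell at both doses. With the GC offsets, 25 of 34 were lower at 10.7 Gy (median -1.34), against 2.95% of all genes. Eosinophil genes held fewer calls within each dose, with 2 of 9 higher at 9.8 Gy (0.371% of all genes), and 3 higher and 1 lower at 10.7 Gy (9.1% and 12.6% of all genes). With the GC offsets 4 of 9 were higher at 10.7 Gy (median 1.28), against 3.59% of all genes. In the 8 animals of 9.8 Gy with S0 on both days none of the 9 was called (lowest adjusted p = 0.0861, edgeR's quasi-likelihood test). By that test 7 of the 9 were at an unadjusted p under 0.05, against 1136 of all 13751 genes tested. Of the genes called higher, 26 were shared between 9.8 Gy and 10.7 Gy, which is 51% of the 51 at 9.8 Gy (0.371% of the genes tested) and 2.08% of those at 10.7 Gy. Of the genes called lower 186 were shared, which is 60.4% of the 308 at 9.8 Gy and 10.8% of those at 10.7 Gy. Without the 9.8 Gy animal B1002, 1.64% of the genes tested were called at 9.8 Gy in place of 2.61%.

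B cell genes fell at 10.7 Gy in 4 of the 5 animals. There 16 of 23 were lower, against 12.6% of all genes, and the list's median was -1.18. Taken in each animal, the list median was 0.608 in B2506 and from -1.95 to -0.997 in the other 4. At 9.8 Gy 1 was lower, against 2.24% of all genes, and the median was -0.15. CD79A, part of the B cell receptor, was at 301, 616, 524, 250 and 177 CPM on Day 30 and at 79.3, 103.1, 156, 287 and 49.3 CPM on Day 90 in the 5 animals of 10.7 Gy, lower in all but B2506 (log2 change -1.61 ± 0.304). With GC offsets 7 of the 23 were lower with a median of -1.04, against 2.95% of all genes, CD79A among them (adjusted p = 0.0387). MS4A1 (CD20), with a transcript of 38.1% GC, was called only with the offsets (-1.22, adjusted p = 0.0335). The dose difference itself did not pass the test for any gene (3330 genes at an unadjusted p under 0.05, lowest adjusted p = 0.0687). DESeq2 called 994. CD79A had a dose difference of -1.28 ± 0.407 (adjusted p = 0.0835). The count was 1581 without the 9.8 Gy male B1001, whose own GC measure fell by 1.69, 1 with the GC offsets (PTMS, parathymosin; 0.00727% of the genes tested) and 451 without the 9.8 Gy female B1504. Of 49 ribosomal protein genes, 17 were lower at 10.7 Gy (12.6% of all genes), and with the offsets 3 were lower and 1 was higher (2.95% and 3.59% of all genes).

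CCR7, the homing receptor of naive lymphocytes, was at 80.9, 189, 179, 129 and 151 CPM on Day 30 and at 50.2, 58.8, 98.2, 89.3 and 27.3 CPM on Day 90 at 10.7 Gy, lower in each of the 5 (-1.23 ± 0.240, adjusted p = 0.00306; with GC offsets adjusted p = 0.0381). At 9.8 Gy it stood at 0.19 ± 0.173, and the dose difference of -1.42 ± 0.340 had an adjusted p of 0.0687. B2M, the light chain of class I molecules, was at 3474, 3358, 5599, 5224 and 4296 CPM on Day 30 and at 9668, 10230, 20670, 9414 and 12430 CPM on Day 90 at 10.7 Gy. The groups did not overlap (log2 change 1.47 ± 0.212), against -0.19 ± 0.324 at 9.8 Gy, with an adjusted p of 0.0826 for the difference. B2M changed by -1.093, -1.272, -0.277 and -1.072 in B1002, B1003, B1505 and B1506, the animals without S0 on Day 90. In the 8 others of 9.8 Gy it changed by -2.559 to 1.598. CCR7 changed by 0.083, 0.850, 0.167 and 0.674 in the same 4 animals and by -0.723 to 1.395 in the 8. All 4 are of 9.8 Gy, so library number and dose cannot be fully told apart here. With GC offsets B2M changed by 1.34 at 10.7 Gy (adjusted p = 0.00854). CLEC7A rose in each of the 5 animals of 10.7 Gy (1.56 ± 0.230) and stood at 0.38 ± 0.174 at 9.8 Gy, with an adjusted p of 0.0738 for the difference. With GC offsets it changed by 1.12 at 10.7 Gy (adjusted p = 0.0182), and over the 17 animals by 0.53, under the 1.5-fold threshold.

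**Figure D5:**
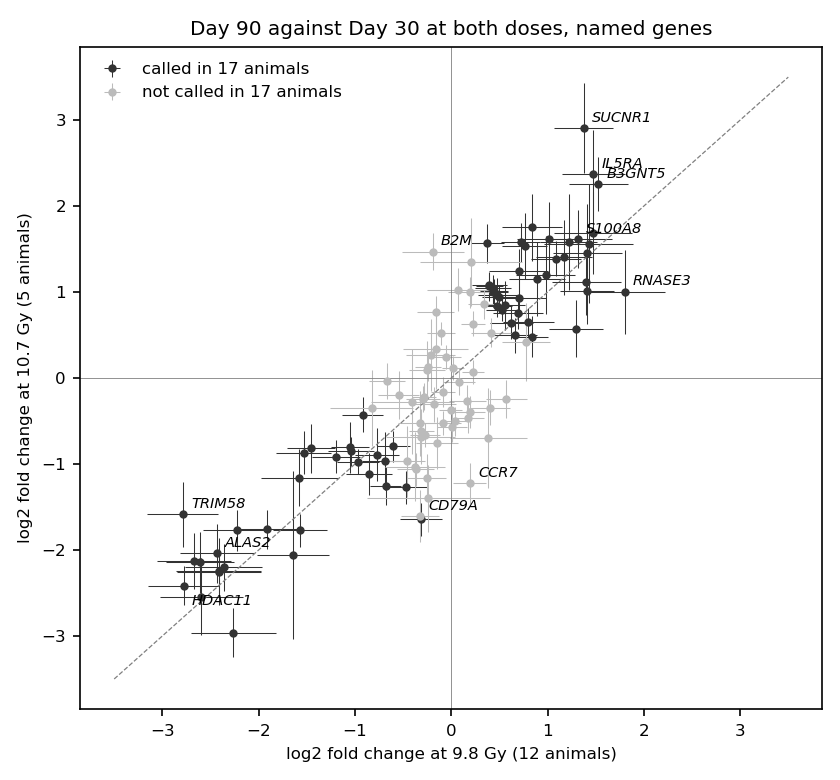
Log2 fold change from Day 30 to Day 90 of the named genes at 9.8 Gy (12 animals, horizontal) and 10.7 Gy (5 animals, vertical), with standard errors as bars; black, called over the 17 animals; grey, not called; dashed line, equal change. HDAC11 and ALAS2 lie near the dashed line, and B2M, CCR7 and CD79A off it, with no dose difference past the test.

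No gene passed the test for a difference of the change by sex or by length of follow-up. Within 9.8 Gy, 6 males against 6 females gave 0 calls for the difference (edgeR's quasi-likelihood test, 463 genes at an unadjusted p under 0.05; also 0 by DESeq2). The 8 animals whose last draw came before Day 150, 4 at each dose, against the 9 drawn on Day 150 or later also gave 0 (1902 genes, lowest adjusted p = 0.197), and DESeq2 called 13. These 8 were 4 of the 12 animals of 9.8 Gy and 4 of the 5 of 10.7 Gy, so follow-up goes in part with dose. With day by dose also in the edgeR model 0 genes were called, and 887 were at an unadjusted p under 0.05. The erythroid list changed by a median of -1.49 in the 8 and -1.60 in the 9 animals. Other lists lay further apart. The mature neutrophil list stood at 0.567 and -0.239, the neutrophil granule list at 0.826 and 0.0456, and the Toll-like receptor list at 0.747 and 0.151. For the eosinophil list the medians were 0.476 and 1.52. These list medians were not tested for a difference.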

How the data were processed

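Blood RNA libraries of 17 macaques on Day 30 and Day 90 were compared. Per the methods, libraries were made with a stranded total RNA kit after ribosomal RNA depletion; per the submitters' processing notes, cutadapt 2.10, STAR 2.7.6a, Subread 2.0.1 and the Mmul_10 build were used, and the strand setting of the counting is not given in the sources used here. The authors deposited raw counts per gene, which were used for every level and test, and a table of log2 values normalized by the authors, used only as an alternative.

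Genes were kept where 80% or more of the series' libraries held 3 or more counts (13751 of 21070). CPM were computed from the counts. edgeR 4.0.16 (R 4.3.3) was run with upper quartile scaling, a quasi-likelihood test and the animal as block, with Benjamini-Hochberg adjustment over all tested genes and a call where the adjusted p did not exceed 0.05 and the change reached 1.5-fold. Dose, sex and follow-up differences were interaction terms. Pairs come from the same animal. The deviations of an animal's 2 libraries from the day means of its dose group correlated at 0.0108 to 0.576 (median 0.387), above 0.1 in 15 of 17. Each animal gives 1 library a day, so p-values measure the spread between animals. No libraries were identical.

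The members and the 35 gene lists were chosen with earlier results of these data known. Named genes were the 10 largest rises and the 10 largest falls called with a mean of at least 1 CPM and with 15 or more of the 17 animals in that direction (LOC symbols left out), up to 3 called members of smallest p in each list, the anchor genes of each list, and up to 3 called genes of smallest p for each difference; further list members, DESeq2 1.42.0 counts, PYCARD and LOC699418 were named after their values were seen. Some genes that the rule chose are not reported here. Alternatives were TMM scaling, DESeq2, no filter or a filter at 1 CPM, limma 3.58.1 on the deposited log2 values, S0 libraries only, no block, leaving out each animal, all Day 30 libraries, day by dose also in the follow-up model and, chosen after seeing the data, offsets from a lowess trend (span 0.3) on transcript GC content. The scripts were tested on simulated counts. Windows upstream of gene starts came from the RefSeq Mmul_10 assembly.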

Additional observations from a re-analysis of the deposited data

Results flagged for a closer look

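Among the 10.7 Gy animals, 75 groups of 5 values were searched for 1 animal far from the others (the 20 genes of largest change on both days and the change of the 35 lists), and 3 were found; chance alone flags about 1 group in 20. ADD2 on Day 30 stood at 1.81 log2 CPM in B2001, against 3.20 to 3.63 in the other 4 animals. The platelet and megakaryocyte list changed by 1.08 in B2502, against -1.12 to -0.56 in the other 4. The oxidative phosphorylation list changed by 0.37 in B2001, against -0.17 to -0.10.

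PTMS, which encodes parathymosin, was the 1 gene whose change differed between the doses once GC offsets were used, by 2.49 ± 0.394 on the log2 scale (adjusted p = 0.0325, edgeR's quasi-likelihood test). Without the offsets the difference was 1.77 (adjusted p = 0.0687). Its level was lower on Day 90 in 11 of 12 animals of 9.8 Gy and higher in 4 of 5 of 10.7 Gy. In the 10.7 Gy animals it went from 50.3 to 180 CPM in B2502, from 36.1 to 73.1 in B2504 and from 75.2 to 220 in B2507, was also higher in B2001 (152 CPM on Day 90), and stood at 96.9 and 93.2 in B2506. Its transcript has a GC content of 66.5%.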

How the results depend on the processing

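The 67 called named genes gave 1742 values over 26 alternatives each, of which 1549 kept direction and call, the rest lost the call, and none changed direction; 36 genes kept the call throughout, and 9 of 48 uncalled genes gained it somewhere. Over those alternatives 27 to 30 of 34 erythroid genes were lower and 3 to 6 of 9 eosinophil genes were higher. Besides the genes for which lost calls are given above, TLR6 and ANXA1 lost the call in 8 of the 26 alternatives and CCR3 and LDHA in 6.

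The counts of calls are given here as percent of the genes tested. The animals are paired by design, and without the replicate block the 17 animals gave 3.64% (4.27% with it), 9.8 Gy 2.25% (2.61%) and 10.7 Gy 14.5% (21.7%). For 9.8 Gy, S0 libraries only gave 0.0145% from 8 animals. The 10.7 Gy share was 6.54% with GC offsets, and its higher and lower calls were 1483 and 1481 with TMM scaling, against 1252 and 1729. For the dose difference DESeq2 called 7.23% and GC offsets 0.00727%, against 0. For the follow-up difference DESeq2 called 0.0945% and S0 libraries only 0.00727%, against 0. The cause was not tested.

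Leaving out 1 animal at a time gave 3.31% (without B1504) to 5.99% (without B1501) over all animals, 1.64% (without B1002) to 3.09% (without B1004) at 9.8 Gy, 16.1% (without B2504) to 22.1% (without B2506) at 10.7 Gy, 0 to 11.5% (without B1001) for the dose difference, with 3.28% without B1504 and 0.00727% without B2001, and 0 to 0 for sex and follow-up. Low genes such as RNASE3 rest on few reads.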
